A study of Drosophila melanogaster with 6 samples.

Results

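Epithelial cells adhere through cadherin-based adherens junctions, keep an apical membrane domain through the Crumbs complex, and seal the space between cells with septate junctions. The genes described here encode parts of these structures. They were named by symbol, 10 in all: shg, crb, sdt, cora, Nrx-IV, Nrg, sinu, Gli, Atpalpha and dlg1. Of these, 9 were measured among 10844 genes, each by the probe set with the highest mean over all 6 arrays. Atpalpha, the alpha subunit of the sodium pump, is not analysed here.

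Signal was measured on microarrays from cells sorted by flow cytometry from dissociated Drosophila melanogaster embryos between late stage 11 and early stage 12. All embryos carried TinD-GFP, an insertion that directs GFP to cardiac mesoderm cells that express Tinman, a homeobox factor of the heart. The 3 GFP-positive arrays hold the labelled cells. The 3 GFP-negative arrays hold unlabelled cells of embryos of the same genotype, in which epidermis, nervous system, gut and unlabelled mesoderm are mixed. The labels give neither the number of embryos nor separate collections for the replicates, so p-values measure only the spread between these arrays, which may be technical.

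As background, shg encodes E-cadherin, the adhesion receptor of adherens junctions, and crb and sdt encode the apical determinant Crumbs and its intracellular partner Stardust. Mesoderm cells lose epithelial organisation when they invaginate, and their cadherin expression shifts from E-cadherin to N-cadherin. Septate junctions mature later in embryogenesis than the stage sampled. Several septate junction proteins, among them Nrx-IV, Nrg, cora and sinu, also serve adhesion in the embryonic heart, between the contractile cardioblasts and the pericardial cells beside them. The comparison asks whether transcripts of epithelial organisation were less abundant in the sorted GFP-positive cells than in the GFP-negative cells.

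None of the 9 genes was called lower or higher in GFP-positive cells, and 6 of the 9 had the higher mean there, as did 45.1% of genes above background. Their median log2 difference, GFP-positive minus GFP-negative, was 0.17, beside -0.02 over all 10844 genes and -0.03 over the 6840 genes with both group means above the background level. The largest positive difference was 0.41 in cora and the largest negative one -0.44 in sdt. Calls were made with limma and a prior variance that follows the signal level, at an adjusted p under 0.05 over all 13966 probe sets (Benjamini-Hochberg). At that threshold 3.85% of genes above background were called in either direction, 2.35% higher and 1.49% lower, so 0 of 9 is close to what that share gives. At an unadjusted p under 0.05 the same fit gave 3 of the 9, sdt, cora and Nrg, against 21.5% of genes above background. With 1 common prior variance in place of the level-dependent one, limma called none of the 9 and 0% of all genes, and at an unadjusted p under 0.05 it gave 2 of the 9, sdt and cora, against 12.6% of genes above background.

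All 9 genes lay well above background in both groups. The background level, 2.44 on the log2 scale, is the highest mean among 23 control probe sets for other organisms. Means in GFP-positive cells exceeded it by 2.66 (sdt) to 6.52 (Nrg). In these mixed cell populations fewer cells of a type and less RNA per cell cannot be told apart.

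**Figure D1:**
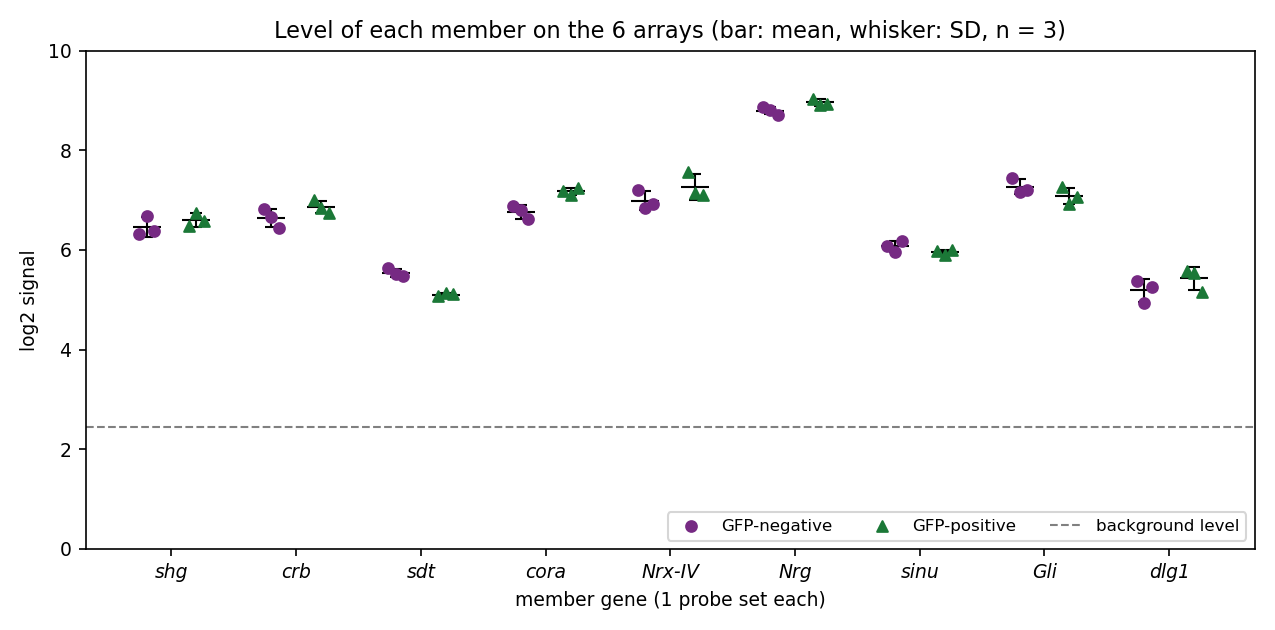
Log2 signal of the 9 measured genes on each array, with GFP-negative arrays as purple circles and GFP-positive arrays as green triangles, mean and SD (n = 3) in black, and the background level of 2.44 as a dashed line. All points lie above that line, and the groups are apart in cora, Nrg and sdt.

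E-cadherin transcript was present at similar signal in both groups. For shg the GFP-positive arrays gave log2 signals of 6.48, 6.74 and 6.58, and the GFP-negative arrays 6.31, 6.69 and 6.38. The groups overlapped, with replicate 2 the highest of each. The difference was 0.14 ± 0.12 (SE, n = 3 per group), with a 95% interval of -0.13 to 0.41 and an adjusted p of 0.681 in limma. On the linear scale this interval places the GFP-positive signal at 0.911 to 1.33 times the GFP-negative one.

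The N-cadherin gene CadN, which mesoderm and neurons express, moved with the sort. Its log2 signals were 7.39, 7.44 and 7.38 on the GFP-positive and 6.81, 6.79 and 6.74 on the GFP-negative arrays, without overlap. CadN rose by 0.63 ± 0.07 (SE, limma adjusted p = 0.0032). Whether the differences of CadN and shg are themselves unequal was not tested. For its neighbour CadN2 the GFP-negative mean lay below the background level and the test was not passed (adjusted p = 0.679).

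Of the apical Crumbs complex, crb had the higher mean and sdt the lower mean in GFP-positive cells. Signals of crb, which encodes the transmembrane protein, were 6.999, 6.85 and 6.75 on the GFP-positive and 6.82, 6.66 and 6.45 on the GFP-negative arrays, and these ranges overlapped. Its difference of 0.22 ± 0.11 did not pass (95% interval -0.03 to 0.48, limma adjusted p = 0.424). For sdt, the scaffold that binds the tail of Crumbs, GFP-positive arrays gave 5.07, 5.13 and 5.11 and GFP-negative arrays 5.64, 5.52 and 5.47. Every GFP-positive array was below every GFP-negative array, and the difference of -0.44 ± 0.12 nevertheless did not pass over all probe sets (95% interval -0.70 to -0.17, limma adjusted p = 0.103).

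The platform annotation gives sdt 7 probe sets, 5 of them with both group means above background, and their differences varied in sign and width. Whether they are unequal was not tested. The one used above had the highest mean. A second one, with a mean of 3.01 over GFP-positive and 3.50 over GFP-negative arrays, also showed no overlap and a difference of -0.48 ± 0.36 (limma adjusted p = 0.615). Probe sets with means of 4.59 and 4.63, and of 4.34 and 4.30, differed by -0.04 and 0.04. The remaining 3 differed by 0.34, 0.40 and 1.02, with SEs of 0.63, 0.64 and 0.83. Of these 3, the one at 1.02 lay below background in both groups and the one at 0.40 in GFP-negative cells. The mean of the 5 above background, chosen after seeing the data, differed by -0.12 (limma adjusted p = 0.855), and the mean of all 7, background probe sets included, by 0.12. The other probe set of dlg1 lay below background in both groups.

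**Figure D2:**
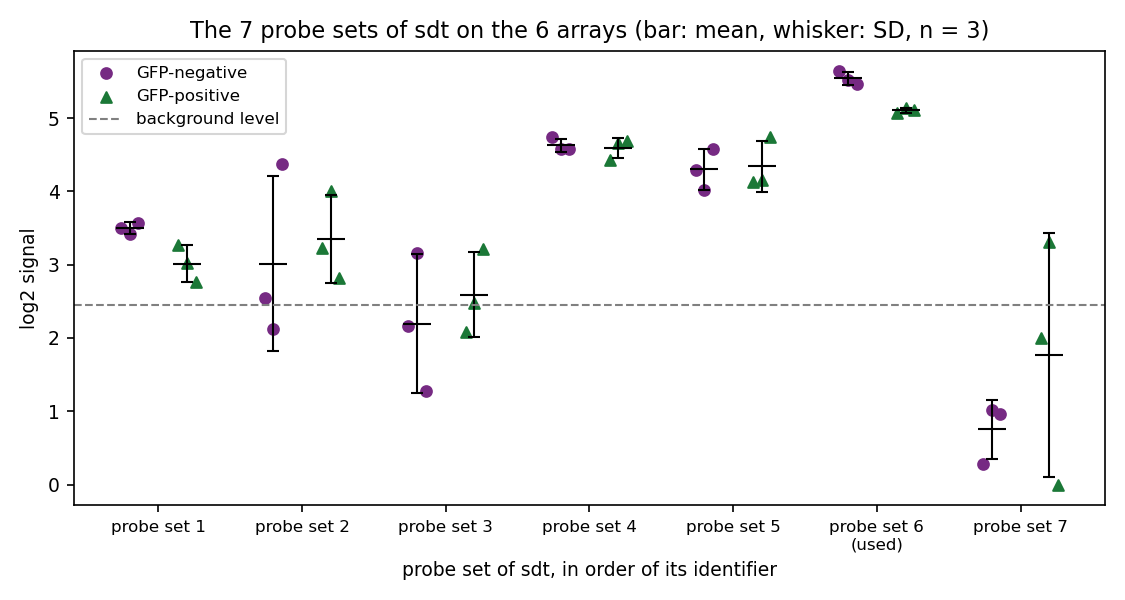
Log2 signal of the 7 probe sets of sdt on the 6 arrays, ordered by identifier, with symbols as for the member genes and the background level dashed. The groups are apart in the first and the sixth probe set, with differences of -0.48 and -0.44, and overlap in the other 5.

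Septate junction members did not move as a group. Both cora, a FERM-domain protein of the junction's inner face, and Nrx-IV, its transmembrane neurexin partner, had higher means in GFP-positive cells. For cora the GFP-positive signals were 7.18, 7.10 and 7.25 and the GFP-negative signals 6.88, 6.81 and 6.61, so that the groups did not overlap. Its difference of 0.41 ± 0.09 (1.33 times on the linear scale, 95% interval 1.15 to 1.53) came closest to the threshold of the 9, with a limma adjusted p of 0.0584. It passed when the dimmest 40% of probe sets were left out before the adjustment (adjusted p = 0.0218). It was 0.28 (adjusted p = 0.232) after the adjustment for gene span described below.

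Nrx-IV signals were 7.56, 7.14 and 7.10 on the GFP-positive and 7.21, 6.84 and 6.92 on the GFP-negative arrays. In both groups replicate 1 was the highest, and the groups overlapped. The difference was 0.28 ± 0.14 (95% interval -0.04 to 0.60, limma adjusted p = 0.426), and 0.13 without GFP-positive replicate 1. Neuroglian, the immunoglobulin-family adhesion protein encoded by Nrg, is also abundant on neurons and glia. Its GFP-positive signals of 9.04, 8.92 and 8.94 were all above the GFP-negative signals of 8.86, 8.82 and 8.71. That difference was small, 0.17 ± 0.06 (95% interval 0.03 to 0.31), and did not pass (limma adjusted p = 0.240).

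The claudin gene sinu and Gli, which encodes the tricellular junction protein Gliotactin, had the lower mean in GFP-positive cells. For sinu the signals were 5.97, 5.90 and 5.99 against 6.07, 5.96 and 6.19, with overlap. Gli gave 7.26, 6.93 and 7.06 on the GFP-positive and 7.44, 7.16 and 7.21 on the GFP-negative arrays, also with overlap. The differences were -0.12 ± 0.10 and -0.19 ± 0.11, with limma adjusted p-values of 0.665 and 0.488. The lower ends of their 95% intervals correspond to 0.789 and 0.741 times the GFP-negative signal.

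dlg1 encodes Discs large, a scaffold of the basolateral membrane that septate junctions, synapses and neuroblasts share. Its signals were 5.58, 5.54 and 5.16 on the GFP-positive and 5.38, 4.94 and 5.25 on the GFP-negative arrays. The lowest GFP-positive array lay within the GFP-negative range. The difference of 0.24 ± 0.17 had a 95% interval of -0.15 to 0.63 (limma adjusted p = 0.604).

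Across the 9 genes the groups did not overlap in 3, higher in cora and Nrg and lower in sdt. Of all genes above background 25.9% showed no overlap in either direction, 11.5% higher and 14.4% lower. The 3 of 9 are therefore near the share over all genes. Summed on the linear scale, signal of the 9 genes ranged from 1248 to 1374 in GFP-positive and from 1114 to 1257 in GFP-negative arrays, ranges that overlapped.

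Partners of the same structures were examined as lists, 43 symbols (older synonyms included) of which 35 were measured. In the adherens junction list 0 of 7 passed in limma. At an unadjusted p under 0.05 there were 4, beside 21.5% of genes above background. The median log2 difference of the list was 0.13. Its largest difference was that of the nectin-like receptor gene ed, 0.32 ± 0.08 (limma adjusted p = 0.090), with GFP-positive signals of 10.21, 10.39 and 10.14 above GFP-negative signals of 9.89, 10.08 and 9.82. A further probe set of ed did pass, at 0.42 ± 0.08 (limma adjusted p = 0.0317). Its remaining probe sets, also above background, did not. They differed by 0.38 ± 0.12 without overlap (limma adjusted p = 0.156) and by 0.05 ± 0.09 with overlap (0.863). The smallest difference of the list was that of jub, which encodes the LIM protein Ajuba, at -0.26 ± 0.10 (limma adjusted p = 0.254). cno (afadin) and pyd (the ZO-1 homologue) differed by 0.31 and 0.29, again without overlap and short of the threshold.

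Among apical polarity partners 1 of 7 was called higher, beside 2.35% of genes above background. kst, which encodes the heavy beta spectrin that links Crumbs to the cortical cytoskeleton, rose by 0.90 ± 0.08 (limma adjusted p = 0.0012). Signals of kst were 7.25, 7.37 and 7.34 on the GFP-positive and 6.42, 6.51 and 6.32 on the GFP-negative arrays. The other 6, baz, par-6, aPKC, Patj, veli and Moe, had differences between -0.06 and 0.20 and did not pass. The list's median was 0.11.

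Of 4 basolateral polarity partners, par-1 and yrt were called higher, beside 2.35% of genes above background. Of the 4, 3 were higher without overlap, beside 11.5% of genes above background, and the list's median was 0.34. yrt encodes Yurt, a FERM protein that restrains Crumbs and takes part in septate junctions. It rose by 0.29 ± 0.06 (limma adjusted p = 0.0370), from 7.61, 7.61 and 7.61 in GFP-negative to 7.89, 7.92 and 7.88 in GFP-positive cells. The polarity kinase gene par-1 rose by 0.56 ± 0.12 (limma adjusted p = 0.0498), while its other 2 probe sets differed by -0.06 and 0.11 and did not pass. scrib differed by 0.39 ± 0.09 (adjusted p = 0.069) and l(2)gl by -0.10 ± 0.10 (adjusted p = 0.753). Without any 1 array the calls of par-1 and yrt were lost, whichever array was left out, and after the span adjustment as well (adjusted p = 0.192 and 0.119). The call of kst was made in each of these fits.

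Of 14 measured septate junction partners, 10 had the lower mean in GFP-positive cells, as did 54.9% of genes above background, and 1 of these 10, vari, lay below background in both groups. Of the 14, 7 were lower without overlap, where 14.4% of genes above background showed this, and the median log2 difference was -0.18. There was 1 call as lower and none as higher, beside 1.49% and 2.35% of genes above background. bou, which encodes the Ly6 protein Boudin, fell by 0.55 ± 0.07 (limma adjusted p = 0.0075). Its signals were 6.78, 6.79 and 6.88 on the GFP-positive and 7.37, 7.29 and 7.45 on the GFP-negative arrays. Further Ly6 genes of septate junction assembly, crim, cold and crok, differed by -0.32 ± 0.07, -0.30 ± 0.12 and -0.19 ± 0.07, with no overlap in any of these and adjusted p-values of 0.059, 0.261 and 0.280.

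The remaining claudin genes resembled sinu in sign. kune differed by -0.29 ± 0.12 and pck, which encodes Megatrachea, by -0.18 ± 0.06, with limma adjusted p-values of 0.279 and 0.236. Lac, the immunoglobulin protein Lachesin, gave 10.12, 10.17 and 10.06 on the GFP-positive and 10.27, 10.29 and 10.29 on the GFP-negative arrays, a difference of -0.17 ± 0.04 (limma adjusted p = 0.096). Cont, the contactin that binds Nrx-IV and Nrg, differed by 0.08 ± 0.08 (adjusted p = 0.708). Of the sodium pump beta subunits, nrv2 differed by -0.19 ± 0.13 (adjusted p = 0.589) and nrv1 by 1.25 ± 0.32 (adjusted p = 0.089). nrv1 was called higher without the dimmest 40% of probe sets (adjusted p = 0.0324) and without GFP-negative replicate 1 (1.58, adjusted p = 0.0402), and the pseudocount of 32 gave 0.47. The 3 genes of smooth septate junctions, the form found in gut epithelium, did not pass in limma. Of the 3, 1 had an unadjusted p under 0.05, beside 21.5% of genes above background. Their largest difference was 1.24 ± 0.52 in Ssk (adjusted p = 0.313), whose GFP-negative mean lay 0.04 above background and whose difference was 0.72 without GFP-negative replicate 3 and 0.25 with the pseudocount. Their smallest was -0.04 ± 0.73 in mesh.

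The calls of these partners rest on the level-dependent prior variance. With 1 common prior variance limma gave adjusted p-values of 0.156 for kst, 0.252 for par-1, 0.420 for yrt, 0.254 for bou and 0.1995 for CadN, and no other named gene was called either.

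**Figure D3:**
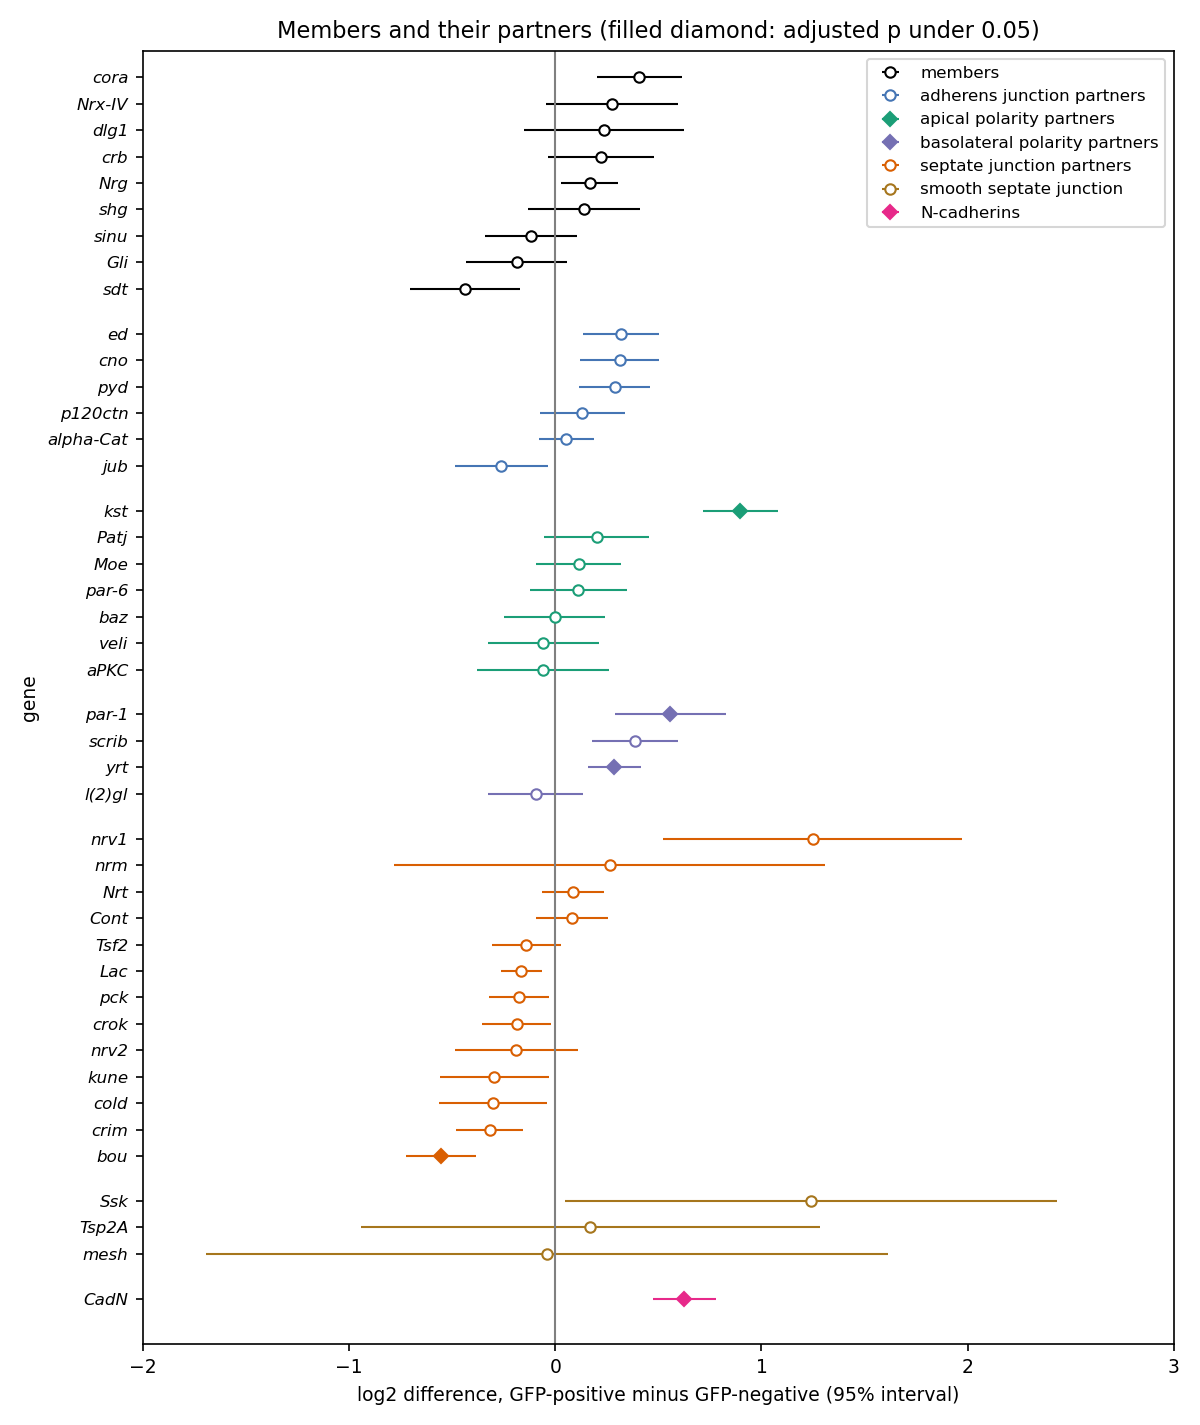
Log2 difference with 95% interval for the 9 members, their partners and CadN, limited to genes with both group means above background and grouped by colour. Filled diamonds mark adjusted p under 0.05, which holds for kst, par-1, yrt and CadN as higher and for bou as lower, while the intervals of 6 of the 9 members include 0.

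Signal differences moved with annotated gene span across the arrays as a whole. Span was taken from the RefSeq table of assembly Release 6. Over the 6821 genes above background with a known span, Spearman's rho between span and difference was 0.31 across genes, which are not independent replicates. Genes of the shortest decile had a median log2 difference of -0.15 and those of the longest decile one of 0.21. Among the members crb, Nrg and dlg1 had spans in the longest decile, and their differences of 0.22, 0.17 and 0.24 lay close to that decile's median of 0.21. sinu, with a span of 2129 bases, had -0.12 where its decile had -0.09.

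Some genes departed from the median of their span class. sdt, the longest at 61926 bases, lay at -0.44 in the decile whose median was 0.21. Gli lay at -0.19 against 0.07, and cora at 0.41 against 0.13. Septate junction partners with a negative difference had a median span of 1552 bases (n = 10), and those with a positive one 9851 bases (n = 4). bou, with 703 bases, lay in the shortest decile.

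When each array was adjusted for span, the median difference of the 9 genes went from 0.17 to 0.06. shg was then at 0.06, crb at 0.09, dlg1 at 0.08, Nrx-IV at 0.17 and Nrg at 0.01, none of which passed. sdt went to -0.61 and was called lower (limma adjusted p = 0.0494), where the same probe sets without the adjustment gave 0.105. kst (0.75, adjusted p = 0.0033), bou (-0.46, adjusted p = 0.0215) and CadN (0.43, adjusted p = 0.0227) passed with the adjustment. Whether span, RNA quality or cell content underlies these values was not tested.

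**Figure D4:**
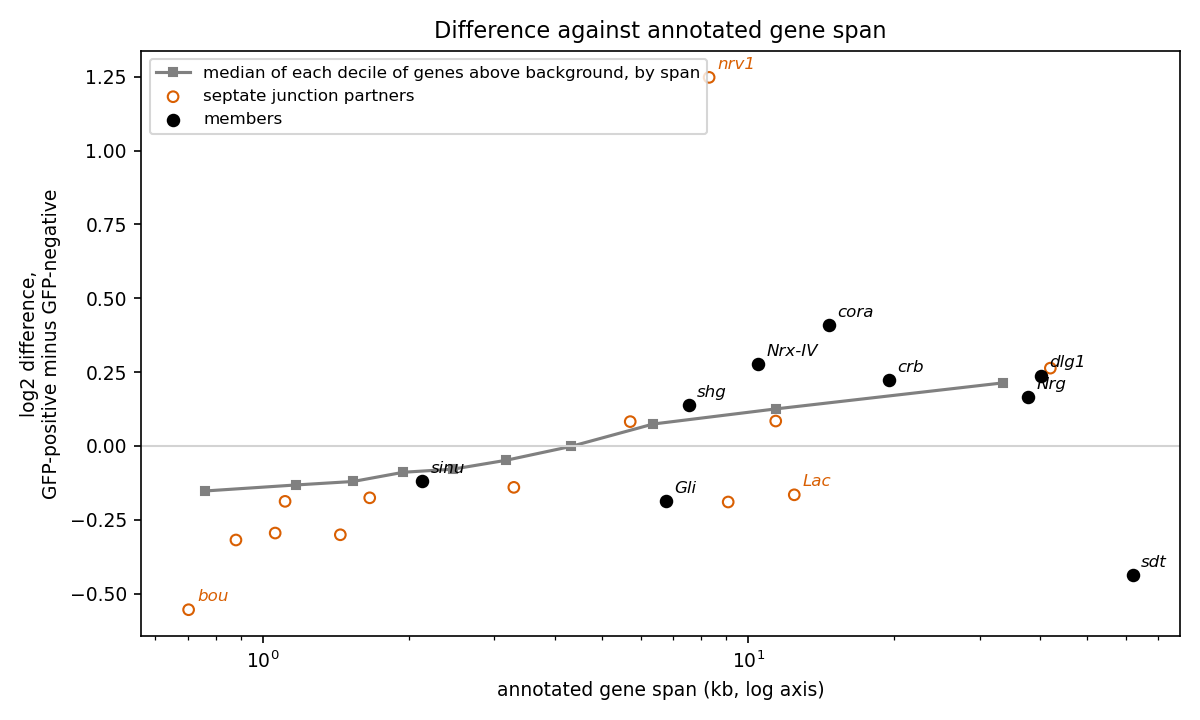
Log2 difference against annotated gene span (kb, log axis) for the 9 members (black), the septate junction partners above background (orange) and the median of each decile of genes by span (grey). The grey line climbs from -0.15 to 0.21, and sdt lies farthest below it among the members at -0.44.

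Markers of the cell types that a dissociated embryo holds were read beside these results. Of 15 ectoderm and epidermis markers 0 passed as higher and 1 as lower, beside 2.35% and 1.49% of genes above background. The list's median was -0.03. At an unadjusted p under 0.05 there were 7 of the 15, beside 21.5% of genes above background. The groups were apart in 6, with 5 lower (en, inv, nub, al and ems) and 1 higher (tup). Among genes above background 14.4% were lower and 11.5% higher without overlap. The differences of en, inv, al, ems and tup were -0.26, -0.51, -1.19, -0.40 and 0.45. The largest of the list, 1.41 in ara, came with overlap and a GFP-negative mean 0.48 above background (limma adjusted p = 0.322). The 1 marker that passed as lower was nub, a POU factor gene, which fell by 0.40 ± 0.08 (limma adjusted p = 0.0490). Its other 2 probe sets lay below background. grh, the Grainyhead factor of epithelial barrier genes, differed by 0.26 ± 0.13 (adjusted p = 0.417), with signals of 6.70, 6.46 and 6.33 on the GFP-positive and 6.37, 6.31 and 6.02 on the GFP-negative arrays. Summed on the linear scale the 15 ranged from 771 to 827 in GFP-positive and from 795 to 903 in GFP-negative arrays, ranges that overlapped. All 15 had both group means above background, though in GFP-positive cells al and pb exceeded it by only 0.10 and 0.14.

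No trachea and salivary gland marker (5 measured, median -0.38), endoderm and gut marker (6, median -0.03), neuron and neuroblast marker (8, median 0.10) or glia marker (6, median -0.07) passed in limma. At an unadjusted p under 0.05 these lists had 1, 2, 3 and 1 genes, beside 21.5% of genes above background. Summed signal of the trachea and salivary gland markers was 123 to 156 in GFP-positive and 171 to 184 in GFP-negative arrays, without overlap. For neurons and neuroblasts it was 1156 to 1241 and 1142 to 1261, for glia 365 to 407 and 380 to 409, and for gut 395 to 423 and 401 to 433, all with overlap. The marker with the highest mean in each of these 4 lists, btl, peb, mira and gcm, differed by -0.51, -0.06, -0.12 and -0.17. btl was at -0.30 without GFP-positive replicate 2. The other probe set of the neuroblast gene mira, with a GFP-positive mean of 2.66 near background, differed by -1.34 without overlap, and the mean of both was called lower (-0.73, limma adjusted p = 0.0454).

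Markers of mesoderm derivatives differed more. Of 7 somatic muscle genes 5 were called higher, beside 2.35% of genes above background. All 7 had the higher mean in GFP-positive cells, 6 of them without overlap (11.5% of genes above background), and the median was 0.95. Among those called were lmd, a factor of fusion-competent myoblasts, at 1.05 ± 0.08 (limma adjusted p = 6.7e-04), and the titin-like gene sls, at 1.15 ± 0.15 (adjusted p = 0.0065). A further sls probe set above background differed by 0.14, with overlap. The mean of all sls probe sets, background ones included, did not pass (0.55, limma adjusted p = 0.717). The mean of those above background, chosen after seeing the data, did (0.65, limma adjusted p = 0.0453). Of 9 mesoderm genes Him and bap were called higher, beside the same 2.35%, and the median was 0.41. Of the 9, 8 had the higher mean in GFP-positive cells, 5 of them without overlap, beside 11.5% of genes above background. The exception was pnr, at -0.29 without overlap (limma adjusted p = 0.354). Differences of mid and H15 were 0.03 and 0.41, with overlap. Hand, a heart factor, had a GFP-negative mean below background and did not pass (adjusted p = 0.560). Of 8 hemocyte genes vkg and Ppn were called higher, both also basement membrane genes. The blood cell genes Hml, lz and NimC1 lay below background in both groups. Summed muscle signal was 656 to 737 in GFP-positive and 354 to 375 in GFP-negative arrays. For mesoderm these ranges were 713 to 737 and 550 to 618, and for hemocytes 449 to 494 and 277 to 331, so that the groups were apart in all 3 lists. Such sums weigh the brightest genes most, lmd among muscle genes (GFP-positive mean 8.37) and Ppn among hemocyte genes (8.11). The other hemocyte genes above background, crq, Pxn and ush, differed by -0.0031, 0.60 and 0.22 and did not pass. The part of cell type content in the values of the 9 junction genes was not tested.

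**Figure D5:**
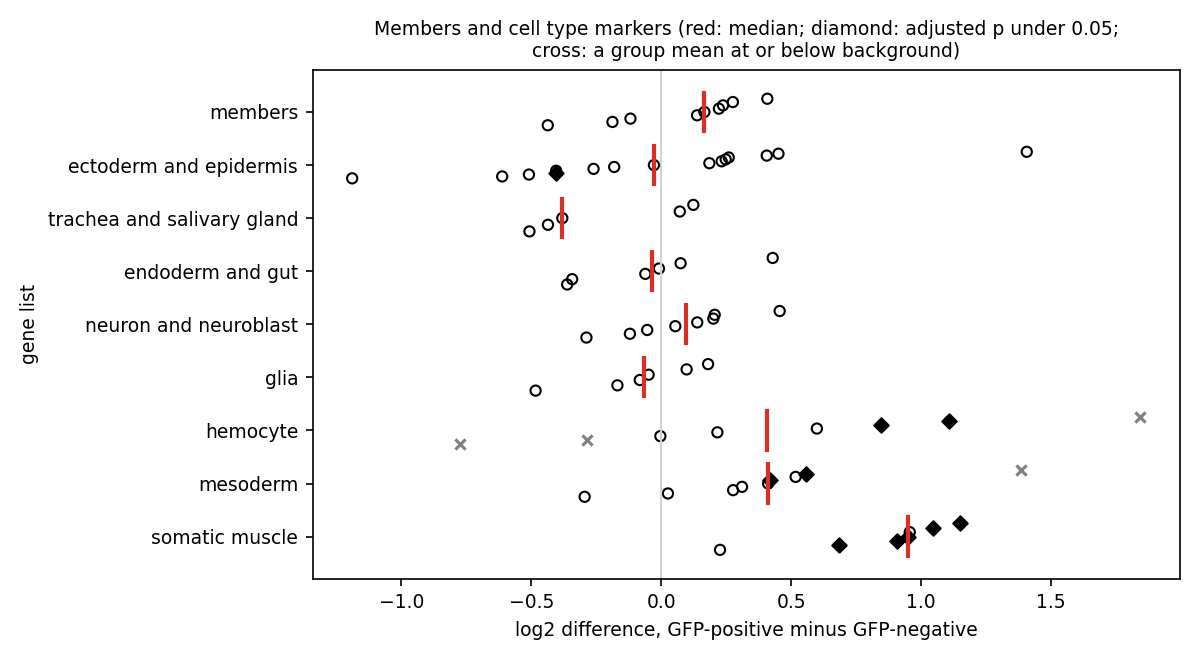
Log2 difference of each measured member and marker gene by list, with the list median in red, filled diamonds for adjusted p under 0.05 and grey crosses for genes with a group mean at or below background. The members, with a median of 0.17, range from -0.44 to 0.41, and the somatic muscle list has its median at 0.95.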

How the data were processed

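For each of 6 arrays the authors deposited signals on the log2 scale, 1 for every probe set. The affy package is named per the submitters' processing notes, without its version or role. How background, scaling and summary were handled is not given in the sources used here. Base 2 was inferred from the range of the values. The medians of the arrays, 3.71 to 3.73, are nearly equal, so that a shift common to most genes would be hidden. The highest control for other organisms lay at 2.58 to 3.55 on single arrays.

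The file holds 14010 probe sets, including 44 controls that were not tested. The platform annotation pairs 12443 probe sets with 1 gene, 327 with several and 1196 with none, and only the first kind was named. Entrez identifiers matched 12394 of these to the RefSeq table and changed no symbol.

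GFP-positive was compared with GFP-negative in limma 3.58.1 (R 4.3.3, trend and robust options, 2-sided, no block), after a check on simulated data. Fold changes compare means of log2 values. The precision is limited by 3 arrays per group. The junction genes, the lists and the choice of prior variance were made with earlier results of these data known. All members were named, and of the partner lists the genes past the threshold and those with the largest and smallest difference. From marker lists the called genes, or else the one with the highest mean, were named. After their values were seen, scrib, cno, pyd, the claudin and Ly6 genes, Lac, Cont, nrv2, CadN2, grh and Hand were added. So were en, inv, al, ems, tup, ara, pb, mid, H15, pnr, crq, Pxn and ush. Alternatives were a common prior variance, a replicate block, array weights, quantile or median scaling, removal of each array or of the dimmest 40% of probe sets, a pseudocount of 32 (linear scale), averaging of probe sets per gene and a lowess adjustment for span. The latter was also set beside an unadjusted fit to the same probe sets, chosen after seeing the data.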

Additional observations from a re-analysis of the deposited data

How the results depend on the processing

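The signs of the 9 members were kept in all alternatives, with 1 exception: the mean of all probe sets gave sdt a difference of 0.12. The count of called members stayed at 0 except for 1 (cora) without the dimmest 40% of probe sets or with the mean of probe sets above background, and 1 (sdt) after the span adjustment. Over all probe sets, 340 calls became 655 without the dimmest 40%, where fewer are tested, 146 after the span adjustment (290 for the same 12394 probe sets without it) and 0 with a common prior variance. Without any 1 of the 6 arrays there were 102 to 189, where fewer samples enter. The cause of the other changes was not tested. The median of the 9 genes lay between 0.06 (span adjustment) and 0.20 (without GFP-negative replicate 1), and the leave-one-out fits gave 0.12 to 0.20. Same-numbered arrays of the groups deviated together with correlations of 0.08, 0.02 and 0.02, so the numbers were not taken as pairs. With a replicate block 437 probe sets and 0 members were called, and not every array correlated best with its own number. The block ended the calls of par-1 (adjusted p = 0.079) and vkg (0.070) and called ed (0.0071).

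Leaving out 1 array moved the members to 0.06 to 0.25 for shg, 0.13 to 0.31 for crb, -0.47 to -0.39 for sdt, 0.33 to 0.47 for cora, 0.13 to 0.38 for Nrx-IV, 0.12 to 0.20 for Nrg, -0.17 to -0.06 for sinu, -0.27 to -0.10 for Gli and 0.11 to 0.37 for dlg1. It gave differences of -0.44 to 0.59 for mesh, -0.15 to 0.08 for aPKC and -0.18 to 0.0012 for l(2)gl, and array weights gave 0.18 for mesh, whose means lay near background. The calls of kst, bou, CadN, lmd and sls were made without any 1 array. With the mean of all probe sets sls lost its call (limma adjusted p = 0.717), and with the mean of those above background it was called (0.0453). Ppn lost its call without GFP-positive replicate 1 (0.053) or 2 (0.062) and with the mean of all probe sets (0.62, adjusted p = 0.088). Ppn was called with the mean of probe sets above background, where fewer genes are tested (0.62, limma adjusted p = 0.0295). The calls of par-1, yrt, nub, vkg, bap and hbs were lost whichever array was left out. Him lost its call without GFP-positive replicate 1, 2 or 3 (limma adjusted p = 0.058, 0.068 and 0.061), and blow without GFP-positive replicate 2 (0.055). Among these fits rols was called only without GFP-positive replicate 3 (0.018). With the mean of all probe sets rols did not pass (0.58, limma adjusted p = 0.52), nor with the mean of those above background (0.92, 0.090). No named gene was called with the common prior variance.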
